A study of Mus musculus with 12 samples.

Results

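Inflammasomes are protein platforms that assemble in the cytosol of macrophages and other cells when a sensor detects microbial products or cell damage. A sensor recruits the adaptor ASC, the product of Pycard, which brings in caspase-1 to cleave the precursors of IL-1β and IL-18 and to cut gasdermin D into a pore-forming fragment. Caspase-11, encoded in the mouse by Casp4, binds lipopolysaccharide (LPS) in the cytosol and cuts gasdermin D directly. The lytic death that follows is called pyroptosis, and Ninj1 encodes the membrane protein that ruptures the plasma membrane at its end. The 10 genes described here are the sensors Nlrp3, Mefv (pyrin), Aim2, Nlrc4 and Nlrp1b, the adaptor Pycard, the caspases Casp1 and Casp4, the pore former Gsdmd and Ninj1. They were chosen by symbol from the 53465 genes of the deposited table, and all 10 were among the 20419 genes with enough signal to be tested.

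RNA was measured by sequencing in peritoneal macrophages, the phagocytes of the abdominal cavity, from C57BL/6 mice at postnatal week 10. The 12 libraries fell into 4 groups of 3: Lyz2Cre control, Lyz2Cre LPS, Lyz2Cre-BHLHE40-Fl control and Lyz2Cre-BHLHE40-Fl LPS. All 4 groups carry Lyz2Cre, in which the lysozyme M locus drives Cre recombinase in myeloid cells (macrophages, monocytes and neutrophils), and the second genotype label adds BHLHE40-Fl, an allele of the transcription factor gene Bhlhe40. LPS is an outer-membrane component of Gram-negative bacteria that is sensed at the cell surface through TLR4; neither its dose nor the length of exposure is stated in the labels. The series asks what BHLHE40 does in the inflammatory response of macrophages. The labels do not say whether the replicates came from separate animals or cultures, so the p-values rest on a spread between libraries that may be technical only.

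Libraries held between 20489417 and 29354869 reads assigned to genes. Values below are normalised read counts, that is, reads scaled by 1 factor for each library in the deposited table, and differences are on the log2(value + 1) scale from limma with Benjamini-Hochberg adjustment over all tested genes. A gene is called higher or lower where the adjusted p is under 0.05. Bhlhe40 itself did not follow the genotype label: its level was 4976 ± 295 (SD, n = 3) in the Lyz2Cre controls and 7893 ± 239 in the BHLHE40-Fl-labelled controls (log2 difference 0.67, limma adjusted p = 6.32e-06), and 2467 ± 226 against 2232 ± 244 with LPS (-0.15, adjusted p = 0.201). Because reads were summed over the whole gene, a deletion of part of it need not lower this value, and every genotype direction below rests on the label. Lyz2, whose locus carries Cre, averaged 765.8 and 969.9 in Lyz2Cre without and with LPS, and 170.2 and 768.7 under the other label. The macrophage gene Cd68 was present at 41444 to 47261 on average in each group, while Adgre1 (F4/80) averaged 30456 in the Lyz2Cre controls and 5635 in the BHLHE40-Fl-labelled controls. The summed levels of 16 mesothelial and stromal markers ranged from 2017 to 2178 in the Lyz2Cre controls and from 11374 to 14647 in the BHLHE40-Fl-labelled controls. Among them Upk3b was at 0 in every Lyz2Cre library. Scaling each library to an equal total moved the median log2 change of all tested genes to -0.58 for LPS in Lyz2Cre, -0.56 for LPS under the other label, 0.17 and 0.22 for the genotype label in controls and with LPS, and 0.06 for the interaction. The share of calls that were higher moved with it from 51.2% to 20.1%, from 49.3% to 21.5%, from 47.5% to 66.9%, from 47.2% to 73.5% and from 50.5% to 64.1%.

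Promoter sequences were taken from RefSeq (GRCm38.p6, the mm10 assembly), where 9 of the 10 genes had an entry and Gsdmd had none. The 250 bases before each annotated start were searched on both strands for a κB motif (GGNNTTTCC), an E-box (CACGTG, the core that BHLHE40 and related factors bind), an interferon-stimulated response element (GAAANNGAA) and a gamma-activated site (TTCNNNGAA). No match of these motifs overlapped another in the 9 genes. They occur in 4.93%, 6.02%, 7.13% and 7.02% of all 32851 RefSeq promoter windows of that length. The κB letters were found before Nlrp3 and Casp4 and the E-box before Casp1, and neither of the other motifs was found before any of the 9 genes. The last 21 bases of the first Casp4 window lie in an exon of the GENCODE M21 annotation. The second of its 2 matches falls in them, so it lies before the RefSeq start only. The windows with matches are printed 5′ to 3′ on the strand of the gene, all on the plus strand, with each match in capitals. The window of a second Casp4 start, which overlaps the first and holds the same 2 matches, is left out. RNA of these 3 genes differed with LPS in both labels. So did that of Aim2, Mefv and Nlrp1b, whose windows held no match. The printed windows are chr11:59541319-59541568 and chr11:59542436-59542685 for the first and second Nlrp3 starts, chr9:5308599-5308848 for the first Casp4 start and chr9:5298267-5298516 for Casp1. A match describes these letters and does not show that a factor bound there.
Nlrp3, first start: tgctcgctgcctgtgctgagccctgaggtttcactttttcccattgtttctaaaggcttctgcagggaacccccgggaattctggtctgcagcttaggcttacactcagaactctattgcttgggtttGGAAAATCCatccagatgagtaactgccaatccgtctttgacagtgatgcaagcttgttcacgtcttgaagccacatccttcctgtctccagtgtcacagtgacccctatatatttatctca
Nlrp3, second start: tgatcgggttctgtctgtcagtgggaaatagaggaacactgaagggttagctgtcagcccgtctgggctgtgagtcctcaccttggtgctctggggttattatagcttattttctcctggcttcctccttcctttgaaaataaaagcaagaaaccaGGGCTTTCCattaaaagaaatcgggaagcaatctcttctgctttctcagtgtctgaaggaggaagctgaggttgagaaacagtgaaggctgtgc
Casp4, first start: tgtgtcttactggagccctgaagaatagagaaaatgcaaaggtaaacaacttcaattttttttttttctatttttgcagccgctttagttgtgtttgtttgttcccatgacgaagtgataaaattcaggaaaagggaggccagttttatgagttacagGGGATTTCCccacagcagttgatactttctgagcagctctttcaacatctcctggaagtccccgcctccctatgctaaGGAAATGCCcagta
Casp1: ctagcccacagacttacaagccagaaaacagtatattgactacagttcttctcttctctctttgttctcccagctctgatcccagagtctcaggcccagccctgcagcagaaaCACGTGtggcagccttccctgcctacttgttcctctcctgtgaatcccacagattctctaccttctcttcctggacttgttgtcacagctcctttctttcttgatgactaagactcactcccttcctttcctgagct

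LPS raised 7 of the 10 genes in the Lyz2Cre libraries and 7 of 10 in the BHLHE40-Fl-labelled libraries. In Lyz2Cre these were Nlrp3, Mefv, Aim2, Casp1, Casp4, Gsdmd and Ninj1, with Nlrp1b lower. In the BHLHE40-Fl-labelled libraries Pycard took the place of Ninj1 among the 7, and Nlrp1b and Nlrc4 were lower. Of all tested genes 25% were called higher and 23.9% lower with LPS in Lyz2Cre, and 24.9% higher and 25.6% lower in the BHLHE40-Fl-labelled libraries. The median log2 change of the 10 genes was 1.99 in Lyz2Cre and 2.14 in the BHLHE40-Fl-labelled libraries, beside 0.00 and -0.05 over all tested genes. In bulk RNA, fewer cells of a type and less RNA per cell cannot be told apart.

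**Figure D1:**
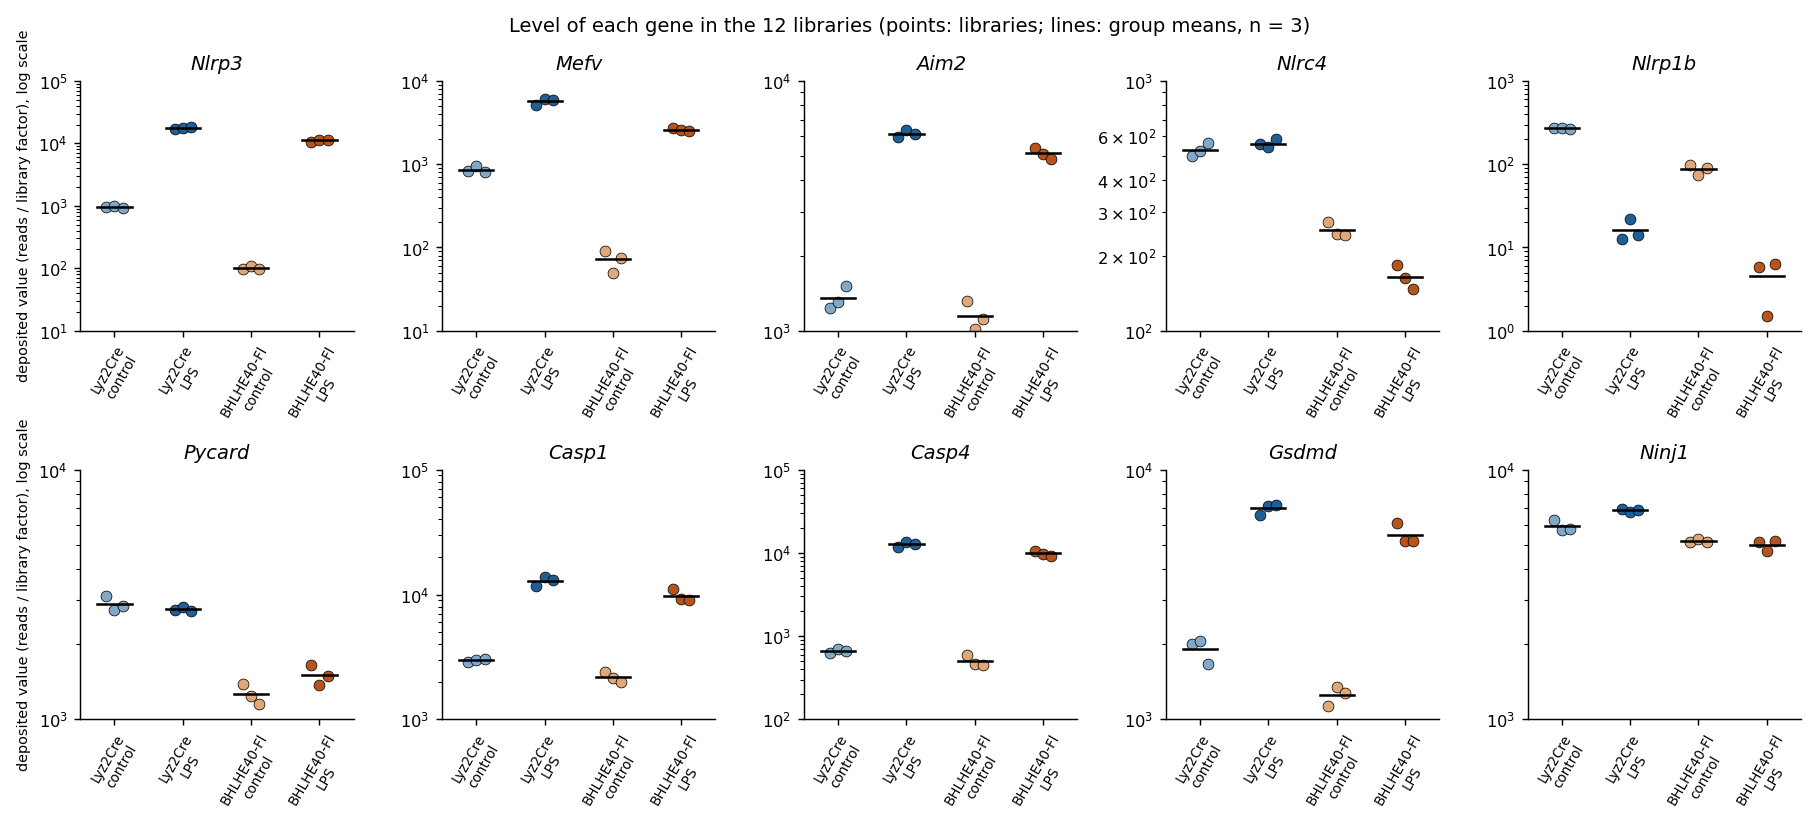
Normalised read counts of the 10 genes in each of the 12 libraries on a logarithmic axis whose range differs by gene, 1 panel per gene, with points for libraries and a line for the mean of each group of 3. Nlrp3, Mefv, Aim2, Casp1, Casp4 and Gsdmd were higher in every LPS library than in every control of the same label, and Nlrp1b was lower.

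Nlrp3 (chr11:59541568-59566956, plus strand), the sensor of ion fluxes and membrane damage, read 956.9, 1006.8 and 908.7 in the Lyz2Cre controls and 16838, 17436 and 18534 in the Lyz2Cre LPS libraries. Under the BHLHE40-Fl label it read 96, 107.4 and 95.7 in the controls and 10718, 11506 and 11475 with LPS. The groups did not overlap in any comparison, and the BHLHE40-Fl-labelled controls were the lowest of the 4 groups. LPS raised it 18.4-fold in Lyz2Cre (log2 4.20 ± 0.07 SE, limma adjusted p = 1.06e-17) and 113-fold in the BHLHE40-Fl-labelled libraries (6.80 ± 0.07, adjusted p = 6.85e-21).

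Mefv (chr16:3707218-3718097, minus strand) encodes pyrin, another inflammasome sensor. It read 835.3, 946 and 796.4 in the Lyz2Cre controls and 5161, 6133 and 5879 with LPS. The BHLHE40-Fl-labelled controls read 90.9, 49.7 and 75.4 and the LPS libraries of that label 2748, 2578 and 2477. LPS raised it 6.66-fold in Lyz2Cre and 36.1-fold in the BHLHE40-Fl-labelled libraries (log2 2.73 and 5.20, limma adjusted p = 3.58e-11 and 3.55e-15). Its pattern over the groups was that of Nlrp3, with the lowest values in the BHLHE40-Fl-labelled controls.

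Aim2 (chr1:173350879-173466040, plus strand), a sensor of cytosolic DNA, averaged 1347 ± 144 (SD, n = 3) in the Lyz2Cre controls and 6154 ± 202 with LPS. Under the BHLHE40-Fl label the averages were 1149 ± 156 and 5128 ± 264. LPS raised it 4.57-fold and 4.46-fold, and the groups with and without LPS did not overlap in either label. The span of Aim2 overlaps that of Cadm3 on the minus strand, and the strand setting of the counting is not given. Any reads in exons that the pair shares could not be told apart, and whether their exons overlap was not tested.

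Nlrc4 (chr17:74425438-74459142, minus strand), the partner of the NAIP sensors of flagellin and secretion systems, read 502.7, 523.6 and 567 in the Lyz2Cre controls and 557.2, 543.5 and 583.2 with LPS. These groups overlapped and the difference was not called (log2 0.08, limma adjusted p = 0.571; with edgeR on recovered reads -0.038). In the BHLHE40-Fl-labelled libraries it read 273.4, 243.2 and 240.6 in the controls and 183.7, 162.5 and 146.5 with LPS. There it fell 1.54-fold (log2 -0.62 ± 0.10, adjusted p = 6.96e-05), with all 3 LPS libraries below the 3 controls. Scaled to equal library totals, Nlrc4 was lower with LPS in Lyz2Cre as well (log2 -0.65), where the median of all tested genes was -0.58. The span of Nlrc4 overlaps that of the processed pseudogene CT033749.1 on the same strand, so reads in the shared stretch cannot be assigned with certainty.

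Nlrp1b (chr11:71153102-71230733, minus strand), a further inflammasome sensor, was the gene that fell most. It read 271.7, 274.8 and 268 in the Lyz2Cre controls and 12.5, 22.1 and 14 with LPS. With the BHLHE40-Fl label it read 97.4, 73.4 and 89.1 in the controls and 5.9, 1.5 and 6.3 with LPS. It fell 16.8-fold in Lyz2Cre and 19.0-fold in the BHLHE40-Fl-labelled libraries (log2 -4.03 and -4.12, limma adjusted p = 2.56e-08 and 1.82e-08). Its level with LPS rests on few reads, and reads from its close relatives Nlrp1a and the pseudogene Nlrp1c-ps may have been counted with it. Nlrp1a was also lower with LPS (log2 -1.39 and -0.87), as was Nlrp1c-ps (-3.49 and -1.44).

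Pycard (chr7:127989708-127993867, minus strand) encodes ASC. It averaged 2898 ± 188 in the Lyz2Cre controls and 2763 ± 58.3 with LPS, and these groups overlapped (log2 -0.07, limma adjusted p = 0.548). The BHLHE40-Fl-labelled libraries averaged 1260 ± 118 without and 1506 ± 137 with LPS (log2 0.26, adjusted p = 0.0143), and these groups overlapped too. That call was lost when BHLHE40-Fl control replicate 3 (adjusted p = 0.0863) or BHLHE40-Fl LPS replicate 1 (0.0735) was left out, when only the 2 groups were fitted (0.0688) and by edgeR (0.0508). With equal library totals the sign turned (-0.36), and with quantile normalization it was -0.031. The span of Pycard overlaps that of the gene Gm45205 on the plus strand, so reads in the shared stretch cannot be assigned with certainty.

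Casp1 (chr9:5298517-5307265, plus strand), the caspase that cleaves pro-IL-1β, read 2860, 3015 and 3033 in the Lyz2Cre controls and 11650, 13756 and 13096 with LPS. The BHLHE40-Fl-labelled libraries read 2417, 2129 and 2010 in the controls and 11027, 9146 and 8969 with LPS. LPS raised it 4.32-fold and 4.45-fold (log2 2.11 and 2.15), without overlap. Casp4 (chr9:5308828-5336783, plus strand) read 621.2, 692.2 and 654.9 in the Lyz2Cre controls and 11843, 13722 and 12764 with LPS. In the BHLHE40-Fl-labelled libraries it read 590.3, 468.2 and 452.9 in the controls and 10692, 9727 and 9199 with LPS. It rose 19.5-fold in Lyz2Cre and 19.6-fold in the BHLHE40-Fl-labelled libraries (log2 4.28 and 4.30, limma adjusted p = 1.70e-16 for Lyz2Cre). Casp1 and Casp4 stand next to each other in the same orientation.

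Gsdmd (chr15:75862327-75867408, plus strand), the pore former, averaged 1915 ± 211 in the Lyz2Cre controls and 6996 ± 372 with LPS, and 1256 ± 111 and 5500 ± 550 in the BHLHE40-Fl-labelled libraries. It rose 3.65-fold and 4.38-fold (log2 1.87 and 2.13), without overlap in either label. Ninj1 (chr13:49187485-49196244, plus strand) had the smallest called change in Lyz2Cre. It averaged 5944 ± 314 in the Lyz2Cre controls and 6871 ± 83.5 with LPS (log2 0.21, limma adjusted p = 0.00873). The BHLHE40-Fl-labelled libraries averaged 5178 ± 85.6 and 5013 ± 253 (-0.05, adjusted p = 0.561). The value for Lyz2Cre turned to -0.52 with equal library totals, where the median of all genes was -0.58, and to -0.63 with quantile normalization, and edgeR did not call it (adjusted p = 0.338).

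**Figure D2:**
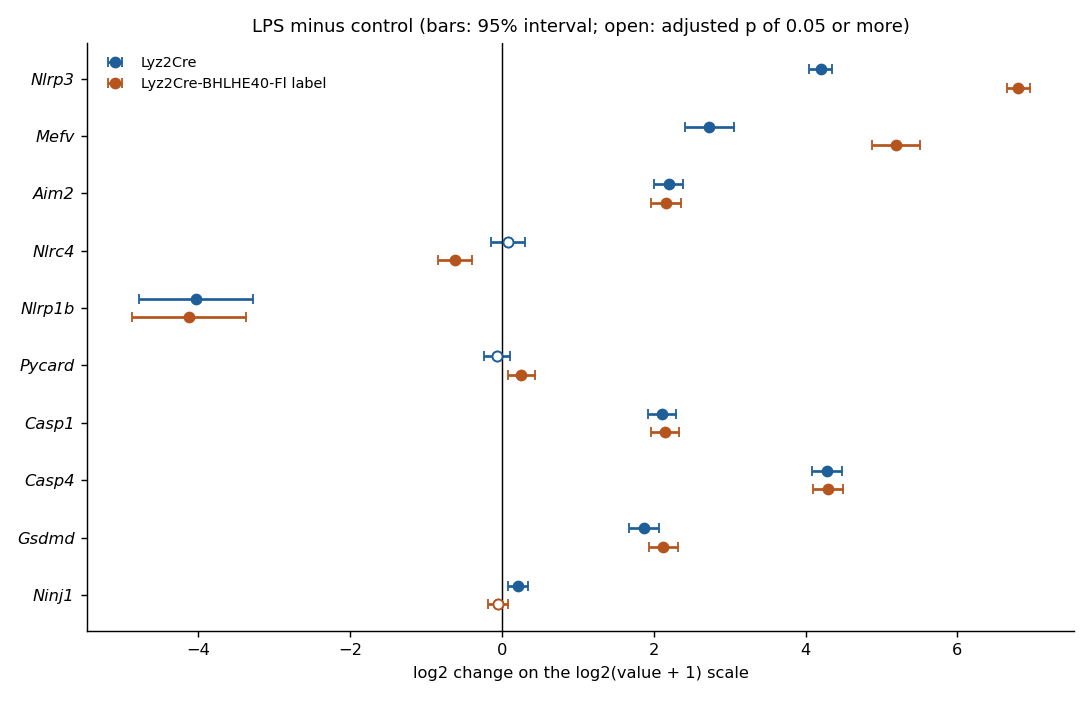
Log2 change with LPS for each of the 10 genes in the Lyz2Cre and the BHLHE40-Fl-labelled libraries, with 95% confidence intervals from limma (open points were not called). Nlrp3 and Mefv rose further in the BHLHE40-Fl-labelled libraries (6.80 and 5.20) than in Lyz2Cre (4.20 and 2.73), and the intervals of Casp4, Casp1 and Aim2 overlapped between labels.

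Levels of different genes were compared only per kilobase of the longest principal transcript (GENCODE M21). In the Lyz2Cre controls Ninj1 was highest, at a mean of 5008 per kilobase, followed by Casp1 at 1983, Gsdmd at 1069 and Pycard at 763. Aim2 (474) and Casp4 (457) overlapped, and Mefv (278), Nlrp3 (238), Nlrc4 (112) and Nlrp1b (65.7) followed. With LPS in Lyz2Cre the order was led by Casp4 (8903) and Casp1 (8573), which overlapped, ahead of Ninj1 (5789), Nlrp3 (4378), Gsdmd (3904), Aim2 (2168), Mefv (1849), Pycard (727), Nlrc4 (119) and Nlrp1b (3.92). In the BHLHE40-Fl-labelled controls Nlrp3 (24.8), Mefv (23.3) and Nlrp1b (21.0) were at the foot, where Mefv overlapped both others and Nlrp3 did not overlap Nlrp1b. With LPS in the BHLHE40-Fl-labelled libraries Casp4 (6880) and Casp1 (6489) again led and overlapped, ahead of Ninj1 at 4223. The place of Pycard is uncertain because its principal transcript spans 3800 bases and its shortest 493.

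Compared at the same treatment, the BHLHE40-Fl-labelled libraries were lower for 9 of the 10 genes in controls and for all 10 with LPS, and higher for none. In controls 15% of all tested genes were called higher and 16.6% lower, and with LPS 17.7% and 19.8%. The median log2 difference of the 10 genes was -0.84 in controls and -0.55 with LPS, beside 0.00 and -0.02 over all tested genes. These comparisons use the libraries of the LPS comparisons above, so they are not separate evidence. General macrophage markers moved the same way: 9 of 10 were lower in the BHLHE40-Fl-labelled libraries in each treatment, with summed levels of 122316 to 135352 against 63536 to 71738 in controls and 160834 to 168317 against 87570 to 91413 with LPS. Of the 16 mesothelial and stromal markers 15 were higher in each treatment, and with LPS their sum ranged from 4286 to 5690 in Lyz2Cre and from 12431 to 16485 in the BHLHE40-Fl-labelled libraries. The sum over 12 neutrophil genes was also lower, at 26728 to 30834 against 1905 to 2011 in controls and 19770 to 20311 against 4481 to 5015 with LPS, while the defining gene Ly6g was at 0 in all 12 libraries. Of the 12, 7 had enough signal to be tested, and in controls 5 were lower and 2 higher. Mmp8 (24800 against 365.6 on average in controls) held most of the sum, and Csf3r was higher in the BHLHE40-Fl-labelled controls (1408 against 1104) and with LPS (4141 against 2162). The sum over 10 genes of large peritoneal macrophages ranged from 91674 to 127498 against 2016 to 2353 in controls and from 162689 to 187998 against 9247 to 10144 with LPS. Saa3 held most of that sum (107174 against 1595 on average in controls). Of these 10 genes 5 were lower and 2 higher in controls, and 4 lower and 2 higher with LPS, and the defining factor Gata6 was higher in both (333.2 against 24.7 in controls). Of 8 T cell genes 7 were lower in each treatment and Lck, which held most of the sum with LPS, was higher with LPS, at sums of 138.6 to 163.8 against 51.3 to 56.6 in controls and 412.6 to 480.5 against 1013 to 1304 with LPS. The part of these marker genes in the differences was not tested.

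In controls the largest differences were those of Mefv and Nlrp3. Mefv was 11.9-fold lower (log2 -3.60, limma adjusted p = 2.59e-12) and Nlrp3 9.60-fold lower (-3.25, adjusted p = 5.11e-16). Nlrp1b was 3.13-fold lower (-1.65, adjusted p = 0.00144). Pycard was 2.30-fold lower (-1.20, adjusted p = 2.19e-09), with libraries at 3106, 2739 and 2849 against 1388, 1236 and 1156. Nlrc4 was 2.10-fold lower (-1.07, adjusted p = 2.44e-07). Gsdmd, Casp1 and Casp4 differed by 1.52-, 1.36- and 1.30-fold, and Ninj1 by -0.20 on the log2 scale. The call of Ninj1 was lost without Lyz2Cre control replicate 1 (adjusted p = 0.103), BHLHE40-Fl control replicate 1 (0.0530) or replicate 3 (0.0636), with equal totals (0.847) and with quantile normalization (0.913). That of Casp4 was lost when only the 2 groups were fitted (0.0508) or totals were made equal (0.0715). Aim2 was not called (-0.23, adjusted p = 0.0643), and its groups overlapped. It was called without Lyz2Cre control replicate 1 (0.0394) or BHLHE40-Fl control replicate 1 (0.00742) and by edgeR (0.0230).

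With LPS the ranking of differences was another one. Nlrc4 had the largest log2 difference (-1.77, 3.42-fold lower, limma adjusted p = 4.06e-10). Nlrp1b was 3.55-fold lower (-1.74, adjusted p = 0.000793), but on few reads, 9, 16 and 9 in Lyz2Cre against 5, 1 and 5. Mefv was 2.20-fold lower (-1.14, adjusted p = 9.62e-06), Pycard 1.83-fold (-0.88, adjusted p = 1.57e-07) and Nlrp3 1.57-fold (-0.65, adjusted p = 1.00e-06). Ninj1, Casp1, Casp4, Gsdmd and Aim2 were lower by 1.37-, 1.32-, 1.29-, 1.27- and 1.20-fold. With equal library totals 6 of the 10 were still called lower, and with quantile normalization 5. Under equal totals the values of Casp1 (-0.12), Casp4 (-0.09) and Gsdmd (-0.06) were not called, beside a median of 0.22 over all genes, and Aim2 turned to 0.022. The call of Aim2 was also lost without any of Lyz2Cre LPS replicates 1, 2 and 3 (adjusted p = 0.0518, 0.103 and 0.0727) and without BHLHE40-Fl LPS replicate 2 or 3 (0.0727 and 0.118). Within the BHLHE40-Fl-labelled LPS libraries replicate 1 had the highest level of Aim2, Casp1, Casp4, Gsdmd, Pycard, Nlrc4 and Mefv, and its share of mitochondrial reads was 0.756%, beside 1.92% and 1.89% in replicates 2 and 3. The part of this difference in the results was not tested.

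**Figure D3:**
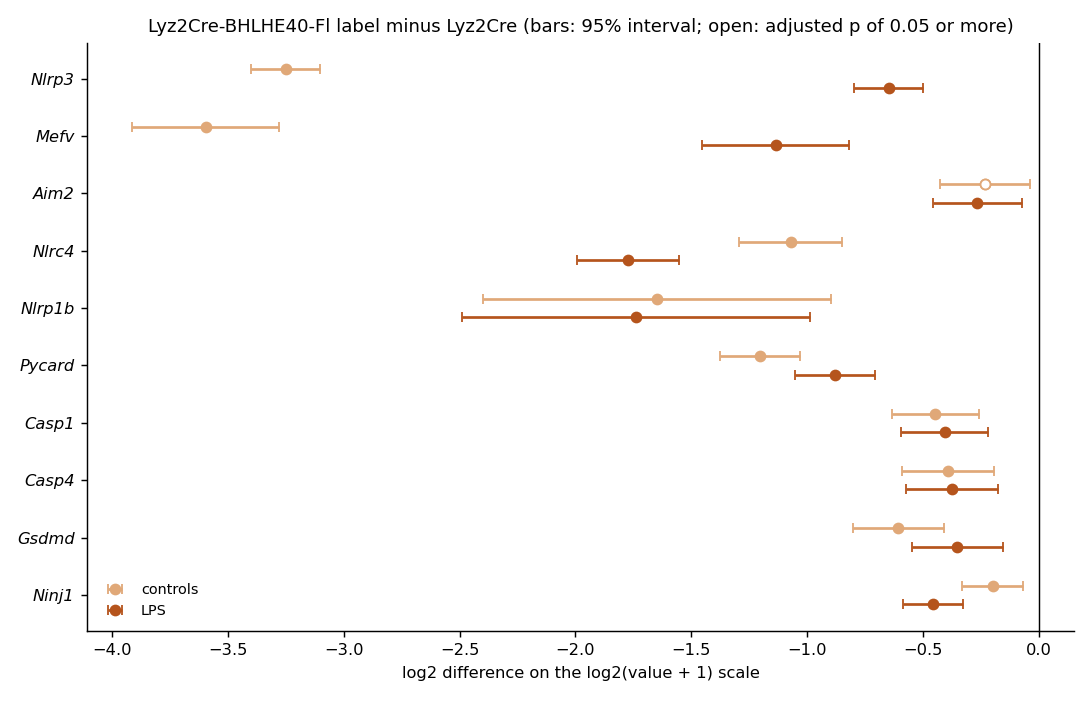
Log2 difference of the BHLHE40-Fl-labelled from the Lyz2Cre libraries for each of the 10 genes, in controls and with LPS, with 95% confidence intervals from limma (open points were not called). Nlrp3 and Mefv differed by -3.25 and -3.60 in controls and by -0.65 and -1.14 with LPS, whereas Nlrc4 went from -1.07 to -1.77.

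The LPS effect differed between the labels for 4 of the 10 genes in the interaction term, where 9.52% of all tested genes were called higher and 9.31% lower. Nlrp3 rose by 2.60 ± 0.10 (SE) more log2 units in the BHLHE40-Fl-labelled libraries (limma adjusted p = 1.12e-11) and Mefv by 2.46 ± 0.21 more (adjusted p = 1.81e-07). Both started from lower controls, and both ended lower than Lyz2Cre with LPS. The effect on Nlrc4 differed by -0.70 ± 0.15 (adjusted p = 0.00235) and that on Ninj1 by -0.26 ± 0.09 (adjusted p = 0.0484). The call of Ninj1 held in 6 of 22 alternatives only, with adjusted p up to 0.316. For the other 6 genes the interaction was not called: Aim2 -0.03 (95% interval -0.31 to 0.24), Casp4 0.02 (-0.26 to 0.30), Casp1 0.04 (adjusted p = 0.875), Nlrp1b -0.09 (0.933), Gsdmd 0.25 (0.209) and Pycard 0.32 (0.0625). Pycard was called in 7 alternatives, among them edgeR (0.0219), DESeq2 (0.0322) and a block for the replicate number (0.0479), and Gsdmd with quantile normalization (0.0284). A p above the threshold does not show that the effects were equal.

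Over the 12 libraries the gene most like each of the 10 in pattern was found by Pearson's r on log2(value + 1). Candidates were 11656 genes with a mean of at least 10, leaving out predicted, clone-named, immunoglobulin, T cell receptor, histone, small RNA and mitochondrial genes. The r values describe likeness across 4 groups of 3 and carry no p, since the groups set most of the spread. Casp4 was most like March5 (r = 0.999), Aim2 like Rars (0.999), Casp1 like Plek (0.998), Nlrp3 like Agtrap (0.998), Mefv like Skil (0.998), Gsdmd like Idnk (0.997), Nlrc4 like Ggta1 (0.997), Nlrp1b like Echs1 (0.993), Pycard like Spp1 (0.991) and Ninj1 like Dok7 (0.977). Among the 10 genes themselves Aim2 and Casp4 were closest (0.997), then Aim2 with Casp1 and Casp1 with Casp4 (0.993 each). Nlrp3 and Pycard were less alike (0.430), and Nlrp1b ran against Casp4 (-0.868).

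Genes that work beside these 10 were counted from lists, whose counts stand against the shares of all tested genes given above for each comparison (25% higher and 23.9% lower with LPS in Lyz2Cre, 24.9% and 25.6% under the other label). Of 10 guanylate-binding and immunity-related GTPase genes, which help expose bacterial LPS to caspase-11, all 10 rose with LPS in each label, all 10 were lower in the BHLHE40-Fl-labelled controls and 4 lower with LPS, and for all 10 the LPS effect was larger in the BHLHE40-Fl-labelled libraries. Gbp5, which promotes NLRP3 assembly, averaged 166 and 42224 in the Lyz2Cre libraries without and with LPS, and 9.73 and 54750 in the BHLHE40-Fl-labelled ones (genotype difference with LPS 0.37, not called). Gbp2 averaged 3675, 154314, 589 and 107810 in the same order. Because these genes are close copies, reads may be shared between them. Among 10 transcription factor genes known to drive inflammasome genes all 10 rose with LPS in each label, 7 were lower and 1 higher in the BHLHE40-Fl-labelled controls, and 3 lower and 2 higher with LPS. Irf1 rose by 3.83 and 5.72 and was lower in the BHLHE40-Fl-labelled controls (log2 difference -1.85, limma adjusted p = 5.88e-13). Irf8 was lower in both treatments (-0.78 and -1.05), as was Hif1a (-1.51 and -1.10), and Irf2 was higher with LPS (0.60).

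**Figure D4:**
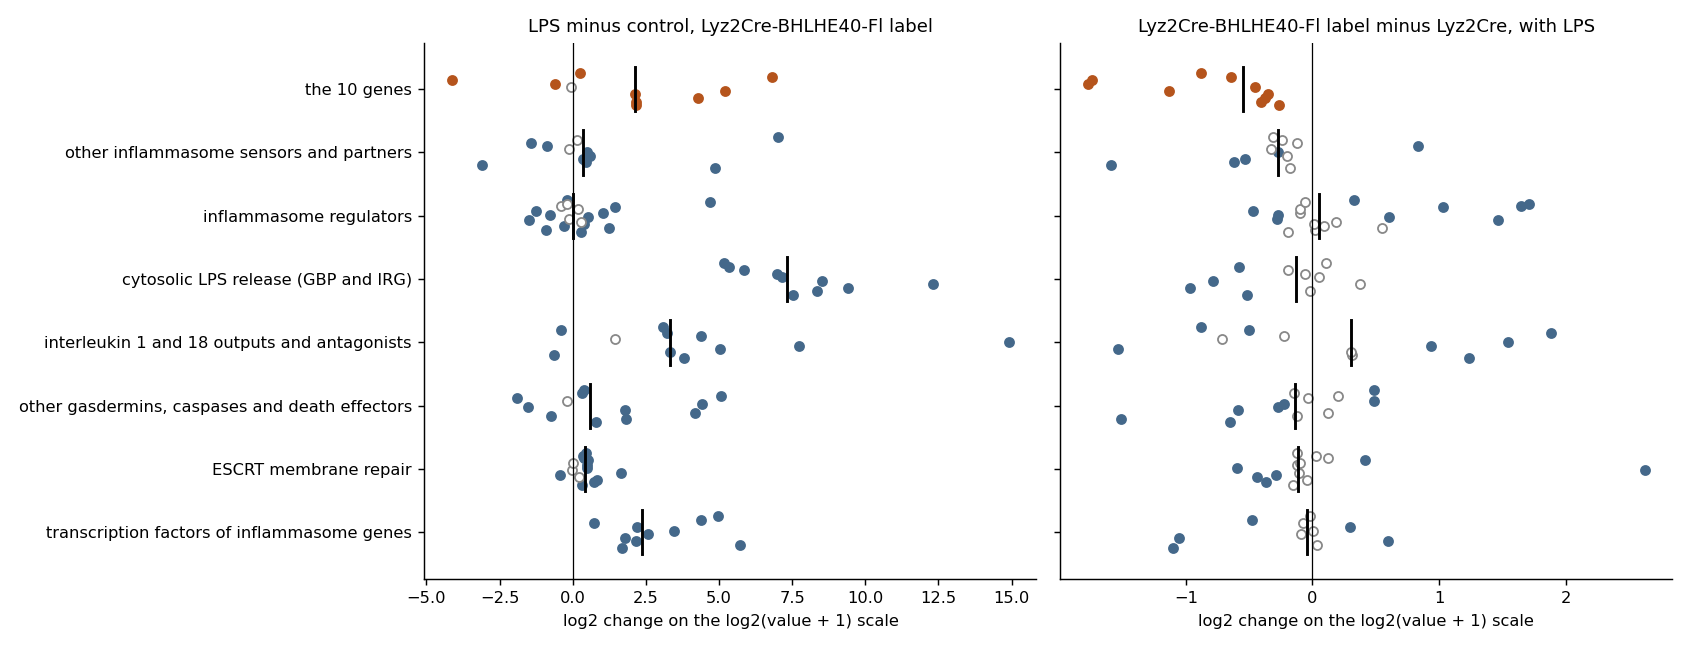
Log2 changes of single genes in the 10 genes and the 7 pathway lists, on the left with LPS in the BHLHE40-Fl-labelled libraries and on the right between labels with LPS; filled points were called by limma, open points were not, and vertical bars are medians. The GTPase genes lie to the right of 0 on the left (median 7.34) and on both sides of 0 on the right (median -0.13), where the 10 genes are all below 0 (median -0.55).

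Of 11 other sensors and partners tested, 6 rose and 3 fell with LPS in each label, and 7 were lower and 1 higher in the BHLHE40-Fl-labelled controls. Zbp1, a nucleic acid sensor, rose by 3.47 and 7.03 and was lower in the BHLHE40-Fl-labelled controls (-3.87, limma adjusted p = 2.84e-09), with no call with LPS (-0.31). The NAIP genes, which work with Nlrc4, were lower in both treatments for Naip5 (-0.83 and -0.53) and Naip1 (-0.85 and -1.59). Naip1 fell with LPS, by 2.36 and 3.10 on the log2 scale, whereas Naip2 (0.19 and 0.45) and Naip6 (0.33 and 0.59) rose in each label. Reads of the Naip copies may be shared. Nek7, the NLRP3 partner kinase, rose with LPS (0.80 and 0.50). Equal library totals moved the median of all tested genes to -0.58 in Lyz2Cre and -0.56 under the other label. Whether the rises of Naip2, Naip6 and Nek7 hold on that scaling was not tested. Nlrp10 rose in Lyz2Cre (2.24) and was not called under the other label (-0.13), and the 2 effects differed (-2.38, limma adjusted p = 0.000192). Among 18 regulators 6 rose and 7 fell with LPS in Lyz2Cre and 7 rose and 6 fell under the other label, with medians of -0.09 and 0.01. Kcnk6, a potassium channel gene, fell from a mean of 973 to 160.8 in Lyz2Cre and from 1254 to 444.2 under the other label. Among 12 gasdermin, caspase and death genes tested, 7 rose and 4 fell in Lyz2Cre and 8 rose and 3 fell in the BHLHE40-Fl-labelled libraries. Mlkl, the executioner of necroptosis, rose by 3.75 and 5.07, Casp8 by 1.82 and 1.77, and Gsdme fell by 1.07 and 1.92. Of 14 ESCRT genes, which repair membranes after gasdermin pores, 10 rose in each label, among them Chmp4b (1.72 and 1.67), which was not called between labels in either treatment. The median change of the 14 was 0.49 in Lyz2Cre and 0.42 under the other label, and these rises were likewise not tested with equal totals.

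The list of interleukin 1 and 18 genes and antagonists also took in the other genes Hmgb1, Tgm2, Tfpi and F3. Of its 11 genes tested, 9 rose and 1 fell with LPS in Lyz2Cre and 8 rose and 2 fell in the BHLHE40-Fl-labelled libraries. Between labels with LPS 4 were higher, 3 lower and 4 not called. Il1b averaged 28850 ± 2407 in the Lyz2Cre LPS libraries and 84193 ± 5549 in the BHLHE40-Fl-labelled LPS libraries (log2 difference 1.55, limma adjusted p = 0.00634), after 281 ± 187 and 2.43 ± 2.92 in the controls. The libraries ranged from 26143 to 30749 and from 80180 to 90526 with LPS, without overlap. Il1a was also higher with LPS (0.94, adjusted p = 1.22e-06), at 85013 ± 7426 against 162448 ± 6645. Il18 rose with LPS by 3.24 and 3.33 and was not called between labels (0.22 and 0.31). Il18bp, which binds IL-18, was lower in the BHLHE40-Fl-labelled libraries in controls (-4.37) and with LPS (-1.54).

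**Figure D5:**
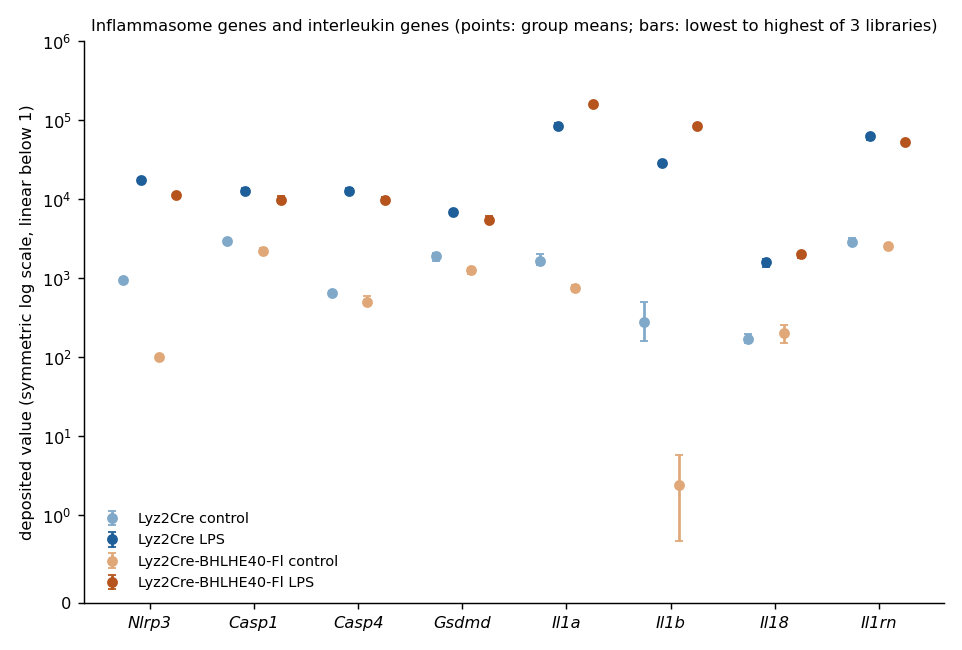
Group means (points) with the lowest to highest of 3 libraries (bars) of deposited values for Nlrp3, Casp1, Casp4 and Gsdmd and for Il1a, Il1b, Il18 and Il1rn, on a symmetric logarithmic axis that is linear below 1. With LPS the BHLHE40-Fl-labelled libraries sit above the Lyz2Cre libraries for Il1a and Il1b and below them for Nlrp3, Casp1, Casp4 and Gsdmd.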

How the data were processed

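Total RNA of peritoneal macrophages was isolated with a column kit and sequenced on Illumina libraries, per the labels' protocols. The submitters' processing notes name mm10, STAR, Cufflinks and Cuffdiff. The counter, the strand setting and the LPS dose are not stated in these sources. The deposited values are a signal: reads of a gene over a factor specific to the library, as judged from the values, since 99.95% to 100% of each library's values were whole multiples of 1 step (tolerance 0.06). No column was left unmatched. Values were not rescaled here. Genes reaching 1 or more in 3 or more libraries were tested with limma 3.58.1 in R 4.3.3 on log2(value + 1), with 1 mean per group over all 12 libraries, after tests on simulated data. That pseudocount understates changes of low genes. Folds compare group means. The 5 contrasts were LPS within each label, the label within each treatment, and their interaction. Alternatives were pseudocounts of 0.1 and 5, no filter and a filter at 5, equal totals, median-of-ratios, quantile normalization, only the groups compared, a replicate block, edgeR 4.0.16 and DESeq2 1.42.0 on reads recovered from the deposited signal, and each library left out. With edgeR 6823 genes were called between labels in controls, beside 6445 with limma. Replicates differed by more than sampling noise. Named genes were the 10, Il1b, Il1a, Il18, Bhlhe40, up to 4 called genes per list with the largest changes, and the gene most like each of the 10. Some genes the rule took are not described. Members and lists were chosen with earlier results of these data known.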

Additional observations from a re-analysis of the deposited data

Results flagged for a closer look

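For 4 of the 10 genes the effect of LPS differed between the genotype labels by the interaction term, given as the log2 effect in the BHLHE40-Fl-labelled libraries minus that in Lyz2Cre with limma's adjusted p. Over all tested genes 9.52% were called higher and 9.31% lower in that term. The values were 2.60 for Nlrp3 (1.12e-11), 2.46 for Mefv (1.81e-07), -0.70 for Nlrc4 (0.00235) and -0.26 for Ninj1 (0.0484), a call that held in 6 of 22 alternatives.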

How the results depend on the processing

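Of the 50 results for the 10 genes, 40 were called, 37 of these never turned in direction and 30 kept their call under every alternative. With equal library totals LPS in Lyz2Cre gave -0.65 for Nlrc4 and -0.52 for Ninj1, LPS in the BHLHE40-Fl-labelled libraries gave -0.36 for Pycard, the genotype label with LPS gave 0.022 for Aim2, and the interaction gave 0.078 for Aim2 and 0.028 for Nlrp1b. Quantile normalization gave -0.63 for Ninj1 with LPS in Lyz2Cre, -0.031 for Pycard with LPS in the BHLHE40-Fl-labelled libraries and 0.098 for Aim2 in the interaction. With edgeR the values were -0.038 for Nlrc4 with LPS in Lyz2Cre and 0.028 for Aim2 in the interaction, and a pseudocount of 5 gave 0.44 for Nlrp1b in the interaction. The cause was not tested. The number of genes called between labels with LPS was 6 with equal totals and 5 with quantile normalization, instead of 10. Leaving out each library in turn gave interactions from -0.12 to 0.072 for Aim2, from -0.053 to 0.12 for Casp1, from -0.054 to 0.14 for Casp4 and from -0.36 to 0.41 for Nlrp1b. After group means were taken off, correlations of same-numbered libraries ran from -0.07 to 0.03 over 18 pairs. The labels do not say whether same-numbered samples were paired, and these values cannot settle it, since no pair known to share an origin was at hand. With the replicate number as a block all 10 genes stayed called between labels with LPS, 3528 genes were called in the interaction instead of 3846, and among the 10 genes the calls that changed were those of Pycard (0.32, adjusted p = 0.0479) and Ninj1 (-0.26, 0.0792) in the interaction. Low reads limit Nlrp1b with LPS.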
